A study of Mus musculus with 4 samples.

Results

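Th1-like cells of the spleen were chosen by their transcripts, as barcodes with at least 1 UMI (unique molecular identifier, the count of 1 captured transcript) each of Tbx21 and Nkg7, no UMI of Foxp3, and fewer than 3 of the 5 cytotoxic genes Gzma, Zeb2, S1pr5, Cx3cr1 and Klrg1. Of 8707 spleen barcodes, 8474 passed limits of 500 genes and 1000 UMIs as minimum and 10% mitochondrial UMIs as maximum. A further 315 held more than 1 productive T cell receptor β chain (TRB) or more than 2 α chains (TRA), and 665 carried the TRAV11-TRAJ18 α chain of invariant natural killer T (NKT) cells. Of the 7494 remaining cells, 389 met the rule, a share of 5.19% (exact binomial 95% interval 4.70 to 5.72), and the other 7105 formed the comparison group. The whole series holds 12984 RNA barcodes from both tissues.

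The cells came from wild-type C57BL/6 mice on day 60 of experimental autoimmune encephalomyelitis (EAE), a model in which immunisation leads CD4+ T cells to attack the central nervous system. CD4+ T cells that stained for CD44, an antigen-experience marker, and not for GITR, a receptor high on regulatory cells, were sorted from spleen and brain, and 38000 spleen and 18718 brain cells were loaded for droplet sequencing of the 5′ ends of RNA with matched receptor libraries. Each tissue has 1 RNA and 1 receptor library, and how many animals a library holds, their age and the immunising antigen are not stated in the sources used here. All spleen comparisons are therefore between cells of 1 library, no test across samples was possible, and every interval below covers counting error alone. In these summed values, more cells carrying a transcript and more transcript per cell cannot be told apart, so shares of cells are given beside the main genes.

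T helper 1 (Th1) cells are the CD4+ T cells that make interferon-γ. T-bet, the protein of Tbx21, is their defining transcription factor, and with STAT4 downstream of the IL-12 receptor it opens Ifng and Cxcr3. CXCR3 is the receptor for chemokines that interferon-γ induces, CCL5 is a chemokine that draws in T cells and monocytes, and NKG7 is a membrane protein of cytotoxic granules. In EAE, Th1 cells and interleukin-17-producing Th17 cells can both carry the disease into the brain.

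The rule fixes Tbx21 and Nkg7, so their levels describe the selection and are not a result. Tbx21 averaged 207 CPM (UMIs of the gene per 1000000 UMIs of the group) in Th1-like cells and 13.4 CPM in other spleen cells, and Nkg7 984 CPM in Th1-like cells and 80.9 CPM in the others. A Th1-like cell held a median of 1 Tbx21 UMI (at most 8) and 8 Nkg7 UMIs (at most 115). The choice rests on few molecules: 198 cells entered with exactly 1 Tbx21 UMI, 38 with exactly 1 Nkg7 UMI, and 174 had at least 2 of each. The 21 cells just inside, with 1 UMI of each gene, held 842 CPM of Ccl5 and 387 CPM of Cxcr3. At the other edge, the 24 included cells with 2 cytotoxic genes held 3720 CPM of Ccl5 and 296 CPM of Cxcr3, and the 28 excluded cells with 3 cytotoxic genes held 11837 CPM of Ccl5 and 179 CPM of Cxcr3. Among 6458 cells that met all other conditions, 284 had Tbx21 alone, 437 had Nkg7 alone and 5348 had neither.

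The remaining markers of the label, Ccl5 and Cxcr3, were higher as well. They were chosen with earlier results of these data known, so they describe the cells and are not separate support for the label. Ccl5 reached 1278 CPM in Th1-like cells and 255 CPM in other spleen cells, a ratio of 5.01 (95% interval 4.84 to 5.18). Cxcr3 reached 454 CPM in Th1-like cells and 120 CPM in the others, a ratio of 3.78 (3.58 to 3.99). Cxcr3 was detected in 90.2% of Th1-like cells, 24.4% of other cells and 4.40% of the 159 B-like cells among the others. The B-like shares are a rough guide to free RNA only. Of the 159 B-like cells, 10 had a paired T cell receptor, so some may hold T cell transcripts of their own. Median depths were 7958 UMIs in Th1-like, 7089 in other and 5468 in B-like cells. After every cell was thinned to 3000 UMIs the shares for Cxcr3 were 68.7%, 18.2% and 2.74% in the same order. Ccl5 was found in 55.0% of Th1-like cells, 5.74% of other cells and 1.89% of B-like cells (47.0%, 4.83% and 2.05% after thinning), so many Th1-like cells showed no Ccl5 molecule.

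Genes of CD4+ T cells were present, while RNA of the sort markers matched the sort only in part. Cd4 measured 403 CPM in Th1-like cells and 350 CPM in other cells, and Cd3e 787 and 710 CPM. Cd44, the sort marker, had 224 CPM in Th1-like cells and 116 CPM in other cells and was detected in 80.2% and 43.8% of them. Tnfrsf18, the gene of the GITR protein against which cells were sorted, had UMIs in 68.4% of Th1-like cells and 45.4% of others. Foxp3, which the rule kept out of Th1-like cells, was detected in 952 of the 7105 other cells. The sort was by protein staining, which RNA does not measure. Markers of natural killer, CD8+ and γδ T cells summed to 28.8 CPM in Th1-like cells and 21.4 CPM in the others, with 3 of the 8 listed at 0 in Th1-like cells, among them Ncr1 and Sox13. Myeloid markers summed to 135 CPM in Th1-like cells and 96.3 CPM in the others, and 3 of 6 (Lyz2, Csf1r and C1qa) were at 0 in Th1-like cells. All 4 haemoglobin genes were at 0 in Th1-like cells and summed to 59.0 CPM in the others. A count of 0 allows up to 0.815 CPM in Th1-like cells. B cell markers summed to 149 CPM in Th1-like cells and 589 CPM in other cells, and 1 Th1-like cell was B-like. The part of these markers in the results was not tested.

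The receptors are a readout that the rule used only to remove surplus chains and TRAV11-TRAJ18. A clonotype is here the set of cells that share V gene and CDR3 nucleotides in both chains, and the CDR3 is the stretch of each chain that meets the peptide. Of the Th1-like cells, 340 had a usable pair, which fell into 280 of 5602 spleen clonotypes. Th1-like cells sat in expanded clonotypes, those of at least 2 spleen cells, in 37.6% of cases (128 of 340, 95% interval 32.5 to 43.0), against 10.7% of other spleen cells (613 of 5750, 9.87 to 11.5). Clonotypes of at least 5 cells held 14.1% of Th1-like cells and 2.90% of others. With each clonotype counted once, 24.3% of clonotypes with a Th1-like cell were expanded, against 4.53% of those with another cell. A clonotype of more cells has more chances to hold a Th1-like cell, which raises the first share by itself. In addition, 59 expanded clonotypes held cells of both kinds and count on both sides. These shares by clonotype are therefore descriptive.

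The largest clonotype, TRBV26 with TRAV7-5, held 27 Th1-like cells among its 60 spleen cells, and 57 brain cells. A second clonotype used the same TRBV26, TRBJ1-5, TRAV7-5 and TRAJ32 segments and held 4 Th1-like cells among 15 spleen cells, and 8 brain cells. Their β-chain CDR3s, shown because they differ in 5 bases (capitals) and carry the largest share of the expansion, are set beside the α-chain CDR3 that both share. They are rearranged sequences assembled from the receptor libraries and have no single genome position.
largest clonotype, TRB: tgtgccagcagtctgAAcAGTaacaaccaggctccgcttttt
second clonotype, TRB: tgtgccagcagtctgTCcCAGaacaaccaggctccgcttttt
both, TRA: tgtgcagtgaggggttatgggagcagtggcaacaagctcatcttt

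Cells with TRBV26 and TRAV7-5 made up 9.41% of Th1-like cells (32 of 340) and 0.939% of other spleen cells (54 of 5750). Counted by clonotype the shares were 1.07% (3 of 280, 0.222 to 3.10) and 0.167% (9 of 5381, 0.0765 to 0.317), so the excess over cells rested largely on 1 clonotype. Without that clonotype, 32.3% of Th1-like cells were in expanded clonotypes.

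Another set of 3 clonotypes differed in nucleotides but encoded the same CDR3 protein in each chain. All used TRBV2 with TRBJ2-1 and TRAJ26. They held 3 Th1-like of 5 spleen cells, 2 of 3 and 1 of 4, in the order printed, and the first also had 4 brain cells. Capitals mark the 2 bases that vary in each chain.
first, TRB: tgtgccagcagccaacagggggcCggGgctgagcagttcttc
second, TRB: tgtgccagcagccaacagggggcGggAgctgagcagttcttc
last, TRB: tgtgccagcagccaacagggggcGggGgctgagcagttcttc
first, TRAV14N-1: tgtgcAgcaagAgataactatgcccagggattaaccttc
second, TRAV14N-1: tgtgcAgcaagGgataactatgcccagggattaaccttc
last, TRAV5-4: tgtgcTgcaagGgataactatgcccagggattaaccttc

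V gene use was compared between the clonotypes of Th1-like cells and those of other cells. Among 110 V genes of both chains, the intervals of the clonotype shares did not overlap for TRAV9N-3, at 3.57% of Th1-like clonotypes (10 of 280, 1.73 to 6.47) and 0.688% of the others (0.485 to 0.947), and for TRAV12-1, at 2.50% and 0.669%. The mean CDR3 length was 14.1 residues (SD 1.51) in TRB of Th1-like clonotypes and 13.9 (SD 1.37) in the others, and 13.6 (SD 1.31) and 13.5 (SD 1.27) in TRA.

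Receptors of Th1-like cells were also found in the brain more often. The clonotype of 26.5% of Th1-like cells (90 of 340, 21.9 to 31.5) had at least 1 brain cell, against 5.60% of other spleen cells (322 of 5750, 5.02 to 6.23). Larger clonotypes are more likely to be sampled in both libraries, so the shares were split by size in the spleen. Among cells alone in their clonotype, 9.43% of Th1-like cells (20 of 212, 5.86 to 14.2) and 1.95% of others (100 of 5137, 1.59 to 2.36) were found in the brain. Among clonotypes of 2 to 4 cells the shares overlapped, at 28.75% of Th1-like cells (19.2 to 39.95) and 25.6% of others (21.6 to 29.9). Among clonotypes of at least 5 cells they were 97.9% of Th1-like cells (47 of 48) and 64.7% of others (108 of 167). Those 48 cells stem from 9 clonotypes, 27 of them from 1. With each clonotype counted once, the shares overlapped, at 8 of 9 (88.9%, 51.8 to 99.7) for Th1-like cells and 14 of 23 (60.9%, 38.5 to 80.3) for others. Without the largest clonotype, 20.1% of Th1-like cells had a clonotype found in the brain.

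The 44 clonotypes found in both places held 277 brain cells, and these differed from other brain cells. They met the same rule (Tbx21 and Nkg7, no Foxp3, fewer than 3 cytotoxic genes) in 44.0% of cases (38.1 to 50.1), against 24.3% of brain cells whose clonotype was in the spleen without a Th1-like cell (19.5 to 29.7) and 23.2% of those whose clonotype was not found in the spleen (21.6 to 24.9). Without the largest clonotype the first share was 43.6%. Ifng was detected in 77.3% of them, 45.2% and 39.0% in the same order, and Cxcr6, the receptor for the membrane-bound chemokine CXCL16, in 88.4%, 75.0% and 58.2%. Ccl5 was detected in 47.3%, 23.3% and 27.8%. Il17a, the Th17 cytokine, was in 9.03%, 13.4% and 8.87%, with overlapping intervals, and so was Gzmb, the gene of granzyme B, in 6.14%, 5.14% and 3.56%. Counted by brain clonotype, 27 of 44 (61.4%), 40 of 144 (27.8%) and 396 of 1830 (21.6%) had a cell of the rule. The 3 groups held 277, 292 and 2447 brain cells, so they differ in cells per clonotype. Cells of 1 clonotype are not independent, and the part of clonotype size in these shares was not tested.

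**Figure D1:**
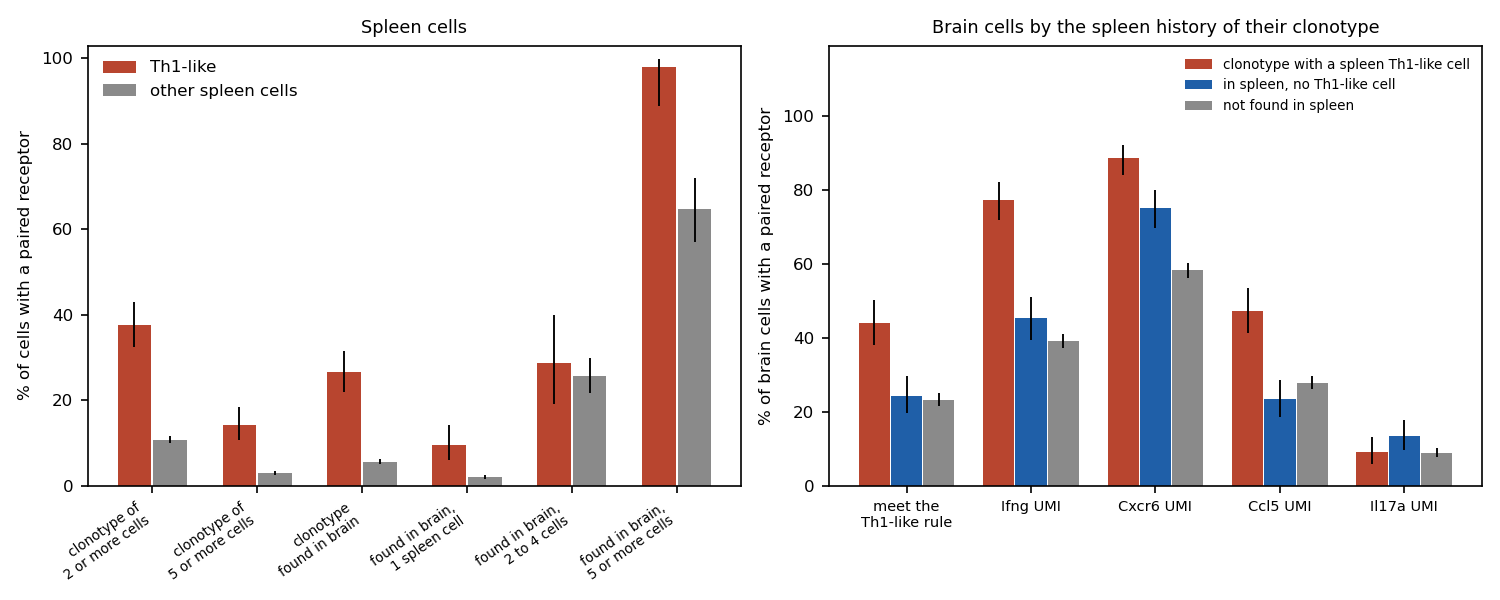
Left, percent of spleen cells with a paired receptor (y axis) in each clonotype class, for Th1-like cells (red) and other spleen cells (grey); right, percent of paired brain cells that meet the rule or hold a UMI of 4 genes, by whether their clonotype had a spleen Th1-like cell, was in the spleen without one, or was not found in the spleen. Bars are shares and lines exact binomial 95% intervals for counting error; over cells, the red intervals lie above the others except for clonotypes of 2 to 4 cells and Il17a; for clonotypes of 5 or more cells they overlap (51.8 to 99.7 and 38.5 to 80.3) once each clonotype is counted once.

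Gene levels were compared as UMIs summed over each group and scaled to CPM. A gene counted as measured at 20 CPM or more in the higher group. It was called higher or lower where the groups differed 1.5-fold or more. On this count 642 of 6954 measured genes were higher in Th1-like cells, which is 9.23%, and 368 were lower, which is 5.29%. The median log2 ratio over all measured genes was 0.08. The lists below were read against those shares, and the 8 genes of the rule were left out of them.

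Transcription factors of type 1 immunity were higher for 4 of 7 measured genes and lower for none, with a median log2 ratio of 1.13. Bhlhe40, which sustains cytokine output by restraining Il10, had 138 CPM in Th1-like cells and 29.0 CPM in the others, a ratio of 4.76 (4.30 to 5.27). Id2, an inhibitor of E proteins, had 1061 and 251 CPM in the same order. Prdm1, the gene of Blimp-1, had 29.9 CPM in Th1-like cells and 10.5 CPM in the others, and Runx3, a partner of T-bet at Ifng, 123 and 56.1 CPM. Stat4 stayed inside the fold at 322 and 251 CPM, as did Irf1 at 188 and 179 CPM. Eomes, the T-bet relative of CD8+ memory and cytotoxic CD4+ cells, had 12.2 and 11.8 CPM and did not reach the measured level.

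Receptors for the cytokines that drive Th1 cells were higher for 7 of 10 genes and lower for 1, with a median of 1.21. Il12rb2, the signalling chain for IL-12, had 105.4 CPM in Th1-like cells and 13.8 CPM in the others, a ratio of 7.65 (6.74 to 8.67). It was detected in 37.5% of Th1-like cells, 4.14% of other cells and 3.14% of B-like cells. The IL-18 receptor chains Il18rap and Il18r1 had 160 and 434 CPM in Th1-like cells, against 27.9 and 134 CPM in the others. Il2rb, shared by the IL-2 and IL-15 receptors, had 364 CPM in Th1-like cells and 102 CPM in others, and Il12rb1 36.9 and 12.8 CPM. The 2 chains of the interferon-γ receptor lay on opposite sides. Ifngr1, the ligand-binding chain, had 446 CPM in Th1-like cells and 241 CPM in the others. Ifngr2, the chain that Th1 lines are known to lose, had 2.99 CPM in Th1-like cells and 39.6 CPM in the others, a ratio of 0.0754 (0.0376 to 0.135). Against others low in naive genes, Ifngr2 did not reach the measured level in either group, so this contrast was not seen there.

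Of the targets of interferon-γ, none of 15 measured genes was higher and 1 was lower, with a median log2 ratio of 0.08, the same as over all genes. Psmb8, an immunoproteasome subunit, had 825 CPM in Th1-like cells and 593 CPM in the others, and the guanylate-binding protein gene Gbp2 61.4 and 54.5 CPM. Iigp1, an immunity-related GTPase gene, was the lower one, at 26.1 CPM in Th1-like cells and 45.0 CPM in the others. Of 10 type I interferon response genes, Mx1 (31.8 CPM in Th1-like cells and 8.66 CPM in others) and Isg15 (150 and 83.2 CPM) were higher and none was lower.

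Genes of cytokines, chemokines and death ligands were higher for 9 of 13 and lower for none, with a median of 1.34. Ifng had 110 CPM in Th1-like cells and 10.9 CPM in the others, a ratio of 10.1 (8.88 to 11.5). It had a UMI in 31.1% of Th1-like cells, 4.50% of other cells and 3.14% of B-like cells (18.6%, 2.53% and 1.37% after thinning), and 5 cells held 31.3% of its UMIs. Xcl1, a chemokine for cross-presenting dendritic cells, had 49.98 and 5.01 CPM, with 53.3% of its UMIs in 5 of the 42 Th1-like cells that held any. Fasl (68.7 CPM in Th1-like cells and 19.3 CPM in others), Csf1 (22.0 and 6.97 CPM), Il2 (34.0 and 13.4 CPM) and Tnf (58.1 and 34.1 CPM) were higher as well. Lta, Ltb, Tnfsf11 and Tnfsf8 were within the fold. Il17a and Il17f had no UMI in Th1-like cells, against 0.685 and 0.247 CPM in other cells, which is below the 0.815 CPM that a count of 0 allows, so a difference was not detectable at this depth.

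Chemokine and egress receptors split. Of 12, 5 were higher and 4 lower, with a median of -0.37. Receptors that take cells to inflamed tissue were higher: Cxcr6 at 388 CPM in Th1-like cells and 53.3 CPM in others (7.29, 6.83 to 7.77) and Ccr2 at 219 and 34.8 CPM (6.30, 5.79 to 6.85). S1pr4, a receptor for sphingosine 1-phosphate, had 187 CPM in Th1-like cells and 104 CPM in others. S1pr1, which lets cells leave lymphoid tissue, had 228 and 285 CPM and stayed inside the fold. Lower were Ccr7, the receptor that holds cells in T cell zones (49.2 CPM in Th1-like cells and 372 CPM in others, but within the fold against others low in naive genes, at a log2 ratio of -0.21), Ccr6, the receptor of Th17 cells (2.17 and 22.9 CPM), Ccr4, linked to Th2 and skin-homing cells (16.8 and 31.4 CPM), and Cxcr5, the receptor that leads to B cell follicles (20.9 and 36.8 CPM).

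Adhesion genes were higher for 9 of 11. Itgb1, the β1 integrin chain, had 1316 CPM in Th1-like cells and 377 CPM in the others (3.49, 3.38 to 3.60). Itga1, its collagen-binding partner, had 40.2 and 2.61 CPM, and Fut7, a fucosyltransferase gene, 26.1 and 5.40 CPM. Itga4, the α4 chain through which T cells enter the brain, was inside the fold at 649 CPM in Th1-like cells and 502 CPM in others.

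Granule genes were higher for 8 of 13 and lower for none, with a median of 1.27, and receptors shared with natural killer cells for 6 of 6, with a median of 2.98. Gzmb had 67.4 CPM in Th1-like cells and 4.70 CPM in the others (14.3, 11.97 to 17.2), but it came from 33 Th1-like cells and 5 of them held 66.1% of its UMIs. Ctsw, a cathepsin of cytotoxic cells, had 277 and 46.0 CPM, and Gzmk 39.4 and 9.21 CPM. The gene for perforin, Prf1, had 12.8 CPM in Th1-like cells and 19.6 CPM in the others. Klrk1, the gene of NKG2D, had 104.9 and 12.3 CPM, Klrc1, the NKG2A chain, 76.3 and 8.54 CPM, and Klrd1, their CD94 partner, 85.3 and 22.5 CPM. Ly6c2 had 202 CPM in Th1-like cells and 27.8 CPM in others, while Ly6c1 had 8.69 and 92.6 CPM; these near-identical genes can trade reads, and their values are uncertain for that reason.

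The genes with the highest ratios by their interval were Ifitm1, Gzmb, Ifitm3, Lgals3, Ifng, Klrc1, Klrk1, Cxcr6, Il12rb2, Ly6c2, Ifitm2 and Anxa1. Ifitm1, an interferon-induced membrane protein gene, had 74.4 CPM in Th1-like cells and 3.50 CPM in others, yet only 30 Th1-like cells held it and 5 of them held 49.3% of the UMIs. Its relatives Ifitm2 and Ifitm3 had 115 and 98.9 CPM in Th1-like cells, against 15.6 and 9.29 CPM in the others, and their copies may share reads. The S100, annexin and galectin genes, typical of effector and memory T cells, were higher for 14 of 15, with a median of 1.46. Lgals3 had 268 and 27.6 CPM, Anxa1 93.4 and 12.9 CPM, S100a4 1344 and 301 CPM, and Lgals1 1501 and 392 CPM, each with Th1-like cells first.

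Genes of naive and central memory cells were lower for 12 of 17 and higher for none, with a median of -1.29. Igfbp4 had 13.3 CPM in Th1-like cells and 215 CPM in the others, Lef1 178 and 597 CPM, Bach2 94.5 and 332 CPM, and Tcf7, the gene of the memory factor TCF-1, 401 and 793 CPM. Il7r, the survival receptor of resting T cells, was level at 740 and 648 CPM, and so was Klf2, a factor that drives S1pr1, at 745 and 662 CPM. The other leading lower genes were Slc28a2b, St8sia6 and Atp1b1, and the B cell and antigen presentation genes Cd79a, H2-Aa, H2-Ab1 and H2-Eb1. Not all of these stayed lower in every comparison. Against other spleen cells low in naive genes, Igfbp4 had a log2 ratio of 0.81, and Tcf7 one of -0.56, inside the fold. Among cells with a paired receptor, Cd79a, H2-Aa, H2-Ab1 and H2-Eb1 had log2 ratios of 1.54, 1.66, 1.32 and 1.20, in that order. Of the follicular helper genes 6 of 12 were lower and 1 higher, and of the early response genes 4 of 10 were lower, led by Fos at 26.9 CPM in Th1-like cells and 72.3 CPM in others.

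Cell cycle genes were higher for 11 of 12, with a median of 1.97. Mki67 had 241 CPM in Th1-like cells and 59.1 CPM in the others, and Rrm2, a subunit of the enzyme that makes DNA precursors, 92.6 and 13.9 CPM. At least 2 of Mki67, Top2a and Birc5 were detected in 39 Th1-like cells, a share of 10.0% (7.23 to 13.5), against 178 of the others, a share of 2.51% (2.15 to 2.90). These 39 cells were deep, with a median of 18469 UMIs against 7713 UMIs in the other 350, and 36 with a receptor pair came from 33 clonotypes. Without such cells in either group, the median of the cell cycle list was 0.80. Without the 2% of spleen cells with most UMIs it was 0.73.

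Because 4796 of the 7105 other cells had at least 2 of 3 genes of naive cells detected, the comparison was repeated against the 2309 others that did not. In this comparison, 285 of 7163 genes were higher in Th1-like cells, or 3.98%, and 570 were lower, or 7.96%. Of these 2309 cells, 386 had Foxp3, 74 were B-like and 82 had at least 3 cytotoxic genes. The receptors shared with natural killer cells were higher for 6 of 6 (median 1.46), cell cycle genes for 12 of 12 (1.51), S100 and related genes for 10 of 15 (0.76), granule genes for 7 of 13 (0.73) and adhesion genes for 6 of 11 (0.66). The medians of the lists closest to the Th1 programme lay inside the fold here. Type 1 cytokine receptors were higher for 4 of 9 and lower for none (0.54), cytokine and ligand genes higher for 5 of 14 and lower for 3 (0.36), and type 1 transcription factors higher for 3 of 8 and lower for 1 (0.23). Ccr7, by which these others were partly chosen, had 49.2 CPM in Th1-like cells and 56.9 CPM in them. Cxcr6 had 388 CPM in Th1-like cells and 155 CPM in these others (2.51, 2.34 to 2.68), Ifng 110 and 30.8 CPM (3.58, 3.12 to 4.11) and Il12rb2 105.4 and 39.7 CPM (2.65, 2.33 to 3.02). Ccl5, at 1278 and 817 CPM, and Cxcr3, at 454 and 257 CPM, were just past the fold.

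What lay below the fold against these cells were programmes of other helper cells. Of 14 follicular helper genes 11 were lower and none higher, with a median of -1.63. Bcl6, the follicular helper factor, had 14.1 CPM in Th1-like cells and 54.7 CPM in the others, and Pdcd1, the gene of PD-1, 57.3 and 169 CPM. Of 10 Th17 genes 6 were lower and none higher, with a median of -0.85, where against all other cells 5 of 7 had been higher. Ccr6 had 2.17 CPM in Th1-like cells and 55.0 CPM in the others. Regulatory genes were lower for 6 of 9, with Ctla4 at 97.0 CPM in Th1-like cells and 413 CPM in the others. The rule kept Foxp3 out of the Th1-like cells, while 386 of the 2309 others held it. The regulatory contrast is therefore partly set by the choice of cells and is given as description. The median of the residency list, 0.63 against all other cells, was -0.14 here.

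**Figure D2:**
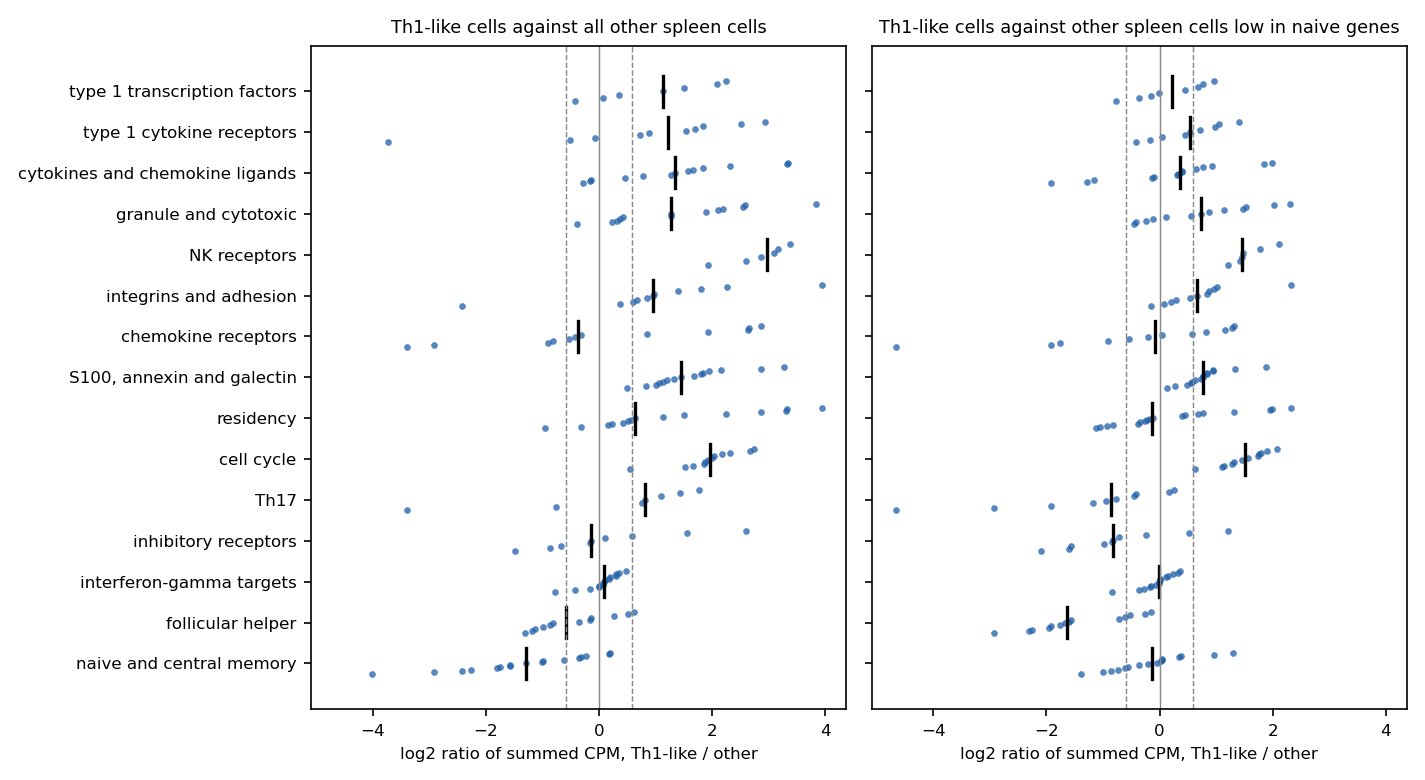
Log2 ratio of summed CPM, Th1-like over other spleen cells (x axis), for the measured genes of 15 lists (points), against all other spleen cells on the left and against those low in naive genes on the right; black bars are list medians and dashed lines the 1.5-fold limits. Medians of type 1 receptors, natural killer receptors, S100 genes and cell cycle lie to the right in both panels. That of type 1 receptors is inside the fold limits in the second panel. The Th17 list lies to the right at a median of 0.82 on the left panel and to the left at -0.85 on the other.

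The Th1-like cells differed among themselves. At 3000 UMIs per cell, 195 of 387 Th1-like cells held a Cxcr6 UMI. Ccr2 was detected in 56.9% of cells with Cxcr6 and 16.1% of those without, Bhlhe40 in 42.1% and 15.1%, and Klrk1 in 29.2% and 6.25%. Slamf6, a surface protein of stem-like memory cells, went the other way, in 20.5% of cells with Cxcr6 and 52.6% of those without, as did Tcf7, in 47.7% and 66.7%. Cxcr3 did not separate them, at 64.1% (56.9 to 70.8) and 69.8% (62.8 to 76.2), nor did Ifng, at 20.5% (15.1 to 26.9) and 16.1% (11.2 to 22.1). Cells with Ccr2 also held Lgals3 more often, in 43.7% against 15.5%. These co-detections describe the cells of 1 library, which share depth and preparation.

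A small set of Th1-like cells carried genes of NKT cells. At least 2 of Zbtb16, Klrb1c, Klrb1b, Klra1, Klra3, Klra7 and Klra9 were detected in 27 cells, a set drawn after these values had been seen and given as description. The levels of these 7 genes are fixed by that choice. Of genes outside it, Xcl1 had 422 CPM in the 27 cells and 23.8 CPM in the remaining 362 Th1-like cells, and Il12rb2 405 and 84.3 CPM. Vim, S100a4 and Itgb1 were lower, at 66.1, 78.5 and 211 CPM in the 27 cells and 1779, 1433 and 1394 CPM in the remaining ones. None of their 19 receptor pairs belonged to an expanded clonotype. Of 23 with 1 TRB chain, 14 used the TRBV13 family (60.9%, 38.5 to 80.3), against 85 of 334 remaining Th1-like cells (25.4%, 20.9 to 30.5) and 70.9% of the TRAV11-TRAJ18 cells that the rule removed. Among the 39 other spleen cells with at least 2 of the same 7 genes, 4 of 17 did (23.5%, 6.81 to 49.9). Cd4 had 174 CPM in the 27 cells and 419 CPM in the others.

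**Figure D3:**
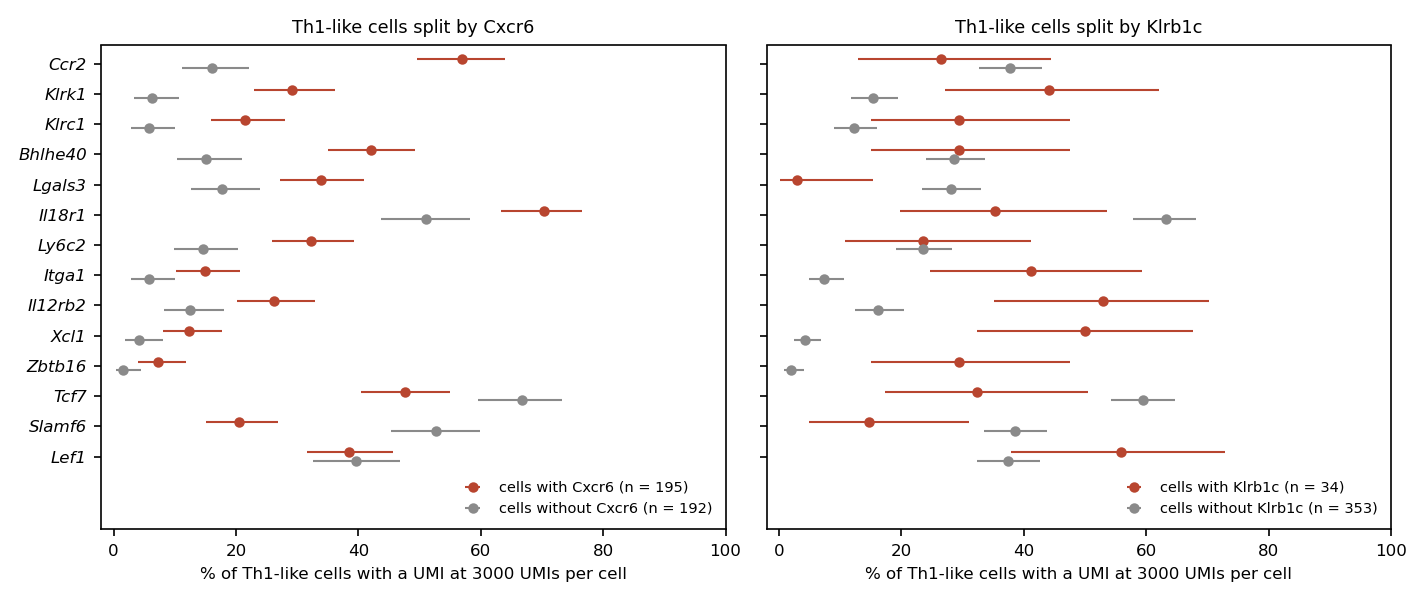
Percent of Th1-like cells with a UMI of each gene (x axis) after thinning to 3000 UMIs per cell, split by Cxcr6 on the left (red with, grey without) and by Klrb1c on the right; lines are exact binomial 95% intervals for counting error. Ccr2 sits at 56.9% with Cxcr6 and 16.1% without, and Xcl1 at 50% with Klrb1c and 4.25% without.

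Expanded and unexpanded Th1-like cells were set side by side. In the 128 cells of expanded clonotypes, 484 of 7005 genes were higher than in the 212 cells alone in theirs (6.91%), and 416 were lower (5.94%). All 12 cell cycle genes were higher (median 1.39), and Ifng had 197 CPM in expanded and 72.6 CPM in unexpanded cells, while Ccl5 was level at 1169 and 1185 CPM and Cxcr3 stood at 540 and 435 CPM. Of 36 paired Th1-like cells with at least 2 of Mki67, Top2a and Birc5, 16 were among the 128 expanded cells. Over all Th1-like cells, 5 cells held 40.3% of Mki67 UMIs and 5 held 31.3% of Ifng UMIs. The part of such cells in these ratios was not tested. Isg15 had 70.1 CPM in expanded and 190 CPM in unexpanded cells. Of 10 type I interferon response genes, 6 were lower and none higher in expanded cells.

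The 27 cells of the largest clonotype were set against the other 362 Th1-like cells. In them 1173 of 7323 genes were higher (16.0%) and 1292 lower (17.6%). The 27 cells summed to 195106 UMIs, in which 4 UMIs make 20.5 CPM. Calls near the 20 CPM limit thus rest on few UMIs, and the called shares include counting error. Il18r1 had 938 CPM in the largest clonotype and 405 CPM in other Th1-like cells (2.31, 1.97 to 2.70), Cxcr6 733 and 369 CPM, Bhlhe40 364 and 126 CPM, and Hif1a, the oxygen-sensing factor, 461 and 143 CPM. The inhibitory receptor genes Lilrb4a and Lilrb4b had 226 and 236 CPM against 21.8 and 31.8 CPM, and may share reads. All 12 cell cycle genes were lower, with a median of -2.77, and Gzmb had no UMI, so that its ratio to the 71.1 CPM of other Th1-like cells was at most 0.268.

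The 90 Th1-like cells whose clonotype was also in the brain were compared with the 250 paired Th1-like cells whose clonotype was not found there. Of 6995 genes 517 were higher (7.39%) and 506 lower (7.23%). Cytokine and ligand genes were higher for 7 of 14, with a median of 0.92. Ifng had 284 CPM in brain-found cells and 70.7 CPM in the others (4.02, 3.27 to 4.94), Il2 91.9 and 21.9 CPM (4.20, 2.90 to 6.13), Tnf 114 and 46.1 CPM (2.48, 1.84 to 3.31) and Csf1 57.1 and 11.9 CPM. Cxcl10, a ligand of CXCR3, had 113 and 21.1 CPM, and Nr4a1, an early gene of receptor signalling, 118 and 33.4 CPM. Cxcr3 did not differ past the fold, at 511 and 463 CPM, and all 12 cell cycle genes were lower, with a median of -1.03. Cells of the largest clonotype are 27 of these 90.

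Sisters offer a view of the same clonotypes outside the rule. The 68 expanded clonotypes with a Th1-like cell included 9 in which all cells were Th1-like, and 59 that held 145 further spleen cells. In the largest clonotype, 18 of 60 cells had at least 3 cytotoxic genes, 13 had Nkg7 alone and 2 Tbx21 alone. In the others, 101 of 213 cells were Th1-like, 18 had at least 3 cytotoxic genes, 29 had Nkg7 alone, 20 Tbx21 alone and 45 neither. Of the sisters, 50 had Tbx21, 78 had Nkg7 and 1 had Foxp3.

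Against 5605 spleen cells with no clonal tie to a Th1-like cell, the sisters were higher for 978 of 7020 genes (13.9%) and lower for 399 (5.68%). All sisters sat in clonotypes of at least 2 spleen cells, while 5137 of the unrelated cells were alone in theirs. At least 3 cytotoxic genes were detected in 36 of the 145 sisters. The part of either in the single gene ratios that follow was not tested. Only gene counts and some list medians were also taken without these 36 sisters, with the cell cycle median given in the closing section. Ccl5 had 2602 CPM in sisters and 192 CPM in unrelated cells (13.5, 12.97 to 14.1), Cxcr6 344 and 43.8 CPM (7.86, 7.03 to 8.77), Ifng 104.6 and 8.69 CPM (12.04, 9.71 to 14.8), Il12rb2 91.2 and 5.38 CPM (17.0, 13.3 to 21.5) and Il18rap 273 and 20.1 CPM (13.6, 11.9 to 15.5). Type 1 cytokine receptors were higher for 8 of 11 (median 1.18), natural killer receptors for 5 of 5 (3.82), S100 and related genes for 14 of 15 (1.17), and naive and central memory genes were lower for 13 of 17 (-1.41). Ifngr2 was low here too, at 1.79 CPM in sisters and 39.8 CPM in unrelated cells (0.0450, 0.00544 to 0.163). The unrelated cells were not limited to those low in naive genes. Gzmb was not shared, at 3.58 CPM in sisters (4 UMIs) and 5.13 CPM in unrelated cells (0.697, 0.188 to 1.81). Among the 45 sisters with no UMI of Tbx21 or Nkg7, the median of the type 1 cytokine receptors was 0.49.

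Every cell of an expanded clonotype was also paired with each other cell of its clonotype. Without the largest clonotype, the partner of a Th1-like cell was Th1-like in 32.7% of ordered pairs (96 of 294), against 12.98% (198 of 1526) for the partner of another cell. With the largest clonotype the shares were 42.3% and 31.4%. Pairs from 1 clonotype are not independent, so these shares are descriptive.

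Cells that held both genes but that the rule removed were compared next. Of 953 spleen cells with Tbx21 and Nkg7 that passed the quality limits, 67 had too many receptor chains, 413 carried TRAV11-TRAJ18, 69 had at least 3 cytotoxic genes and 15 had Foxp3. Against the 69 cytotoxic cells, 938 of 7157 genes were higher in Th1-like cells (13.1%) and 992 lower (13.9%). Ccl5 had 1278 CPM in Th1-like cells and 13609 CPM in cytotoxic cells, Klrd1 85.3 and 436 CPM, and Cxcr3, the other way, 454 and 109 CPM (4.16, 3.12 to 5.69). Klf2 had 745 CPM in Th1-like cells and 1813 CPM in cytotoxic cells, and Slamf6 221 and 39.5 CPM. Cxcr6, Ccr2 and Il18r1 were within the fold. All 12 cell cycle genes were higher in Th1-like cells, and natural killer receptors were lower for 7 of 9.

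Against 412 TRAV11-TRAJ18 cells with Tbx21 and Nkg7 without Foxp3 and with fewer than 3 cytotoxic genes, 694 of 7164 genes were higher in Th1-like cells (9.69%) and 838 lower (11.7%). All 15 S100, annexin and galectin genes were higher, with a median of 3.03. Vim had 1666 CPM in Th1-like cells and 18.4 CPM in TRAV11-TRAJ18 cells, and Lgals3 268 and 3.26 CPM. Cxcr6 had 388 CPM in Th1-like cells and 1291 CPM in TRAV11-TRAJ18 cells, Xcl1 49.98 and 374 CPM, and Il12rb2 105.4 and 387 CPM. Cxcr3, at 454 and 499.5 CPM, and Ccr2, at 219 and 210 CPM, were level between both.

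Cells with only 1 of the rule's genes lay between Th1-like cells and those with neither for several genes, which the rule did not set. Cxcr6 had 388 CPM in Th1-like cells, 232 CPM in cells with Nkg7 alone, 106 CPM in cells with Tbx21 alone and 36.8 CPM in cells with neither. Il18r1 followed at 434, 234, 232 and 118 CPM in the same order, where the neighbours with Nkg7 alone and Tbx21 alone did not differ beyond counting error. Cxcr3 stood at 454, 342, 427 and 73.0 CPM. Ccl5 went with Nkg7, at 1278, 1637, 79.7 and 5.96 CPM. Detection at this depth is incomplete, so cells of 1 gene may hold the other.

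**Figure D4:**
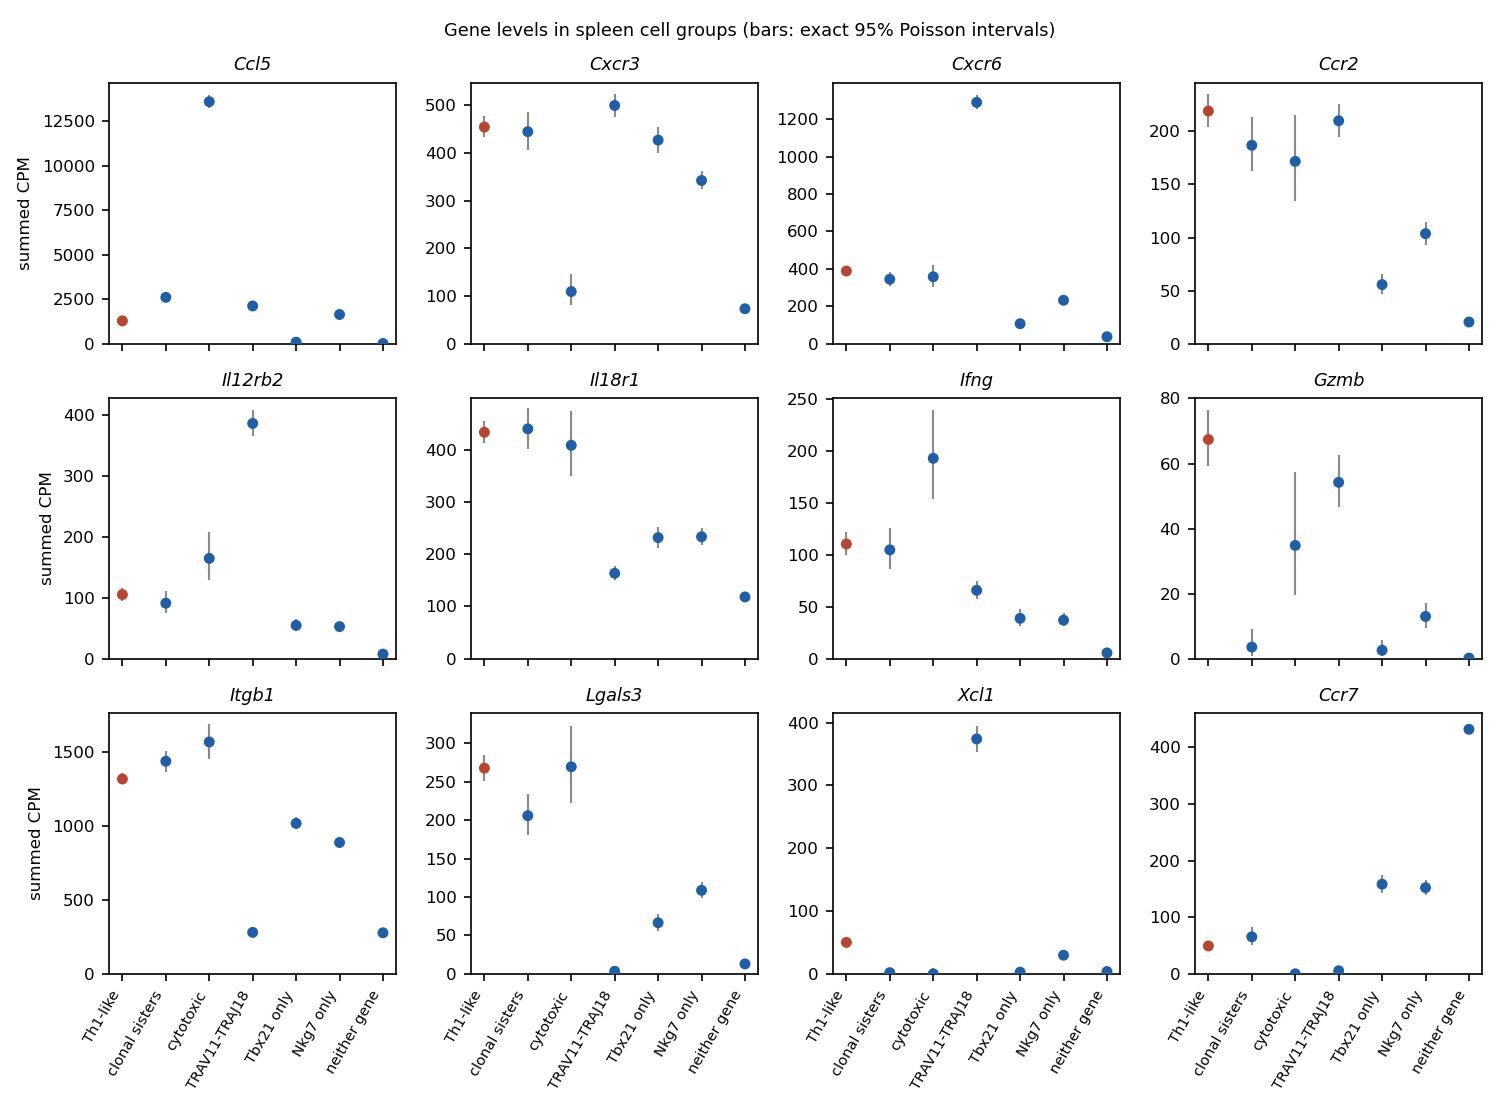
Summed CPM (y axes, linear, from 0) of 12 genes in Th1-like cells (red) and 6 other spleen groups (blue): clonal sisters, cytotoxic and TRAV11-TRAJ18 cells with both genes, cells with Tbx21 only, with Nkg7 only and with neither; lines are exact Poisson 95% intervals. Ccl5 peaks in cytotoxic cells at 13609 CPM, Xcl1 in TRAV11-TRAJ18 cells at 374 CPM and Ccr7 in cells with neither gene at 432 CPM.

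The same rule in the brain gave 938 of 3841 cells, a share of 24.4% (23.1 to 25.8), at median depths of 10774.5 UMIs in those cells and 9539 UMIs in other brain cells. Within the brain, 139 of 6599 genes were higher in them than in other brain cells (2.11%) and 203 lower (3.08%). Ifng had 566 CPM in brain cells of the rule and 211 CPM in other brain cells (2.69, 2.60 to 2.79), Xcl1 162 and 49.5 CPM, Itga1 151 and 47.0 CPM, and Ccl5 952 and 462 CPM. Of 13 Th17 genes 11 were lower and none higher, with Il17a at 84.3 and 311 CPM and Il23r at 18.8 and 54.6 CPM. Of 186 listed and leading genes measured in both tissues, 82 were higher in the spleen contrast, and 37 of these were higher and 3 lower in the brain contrast. Of 31 lower in the spleen, 23 were lower in the brain too and 1 was higher. Ifngr2 was again low, at 3.87 CPM in brain cells of the rule and 46.7 CPM in other brain cells, which were not limited to those low in naive genes.

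**Figure D5:**
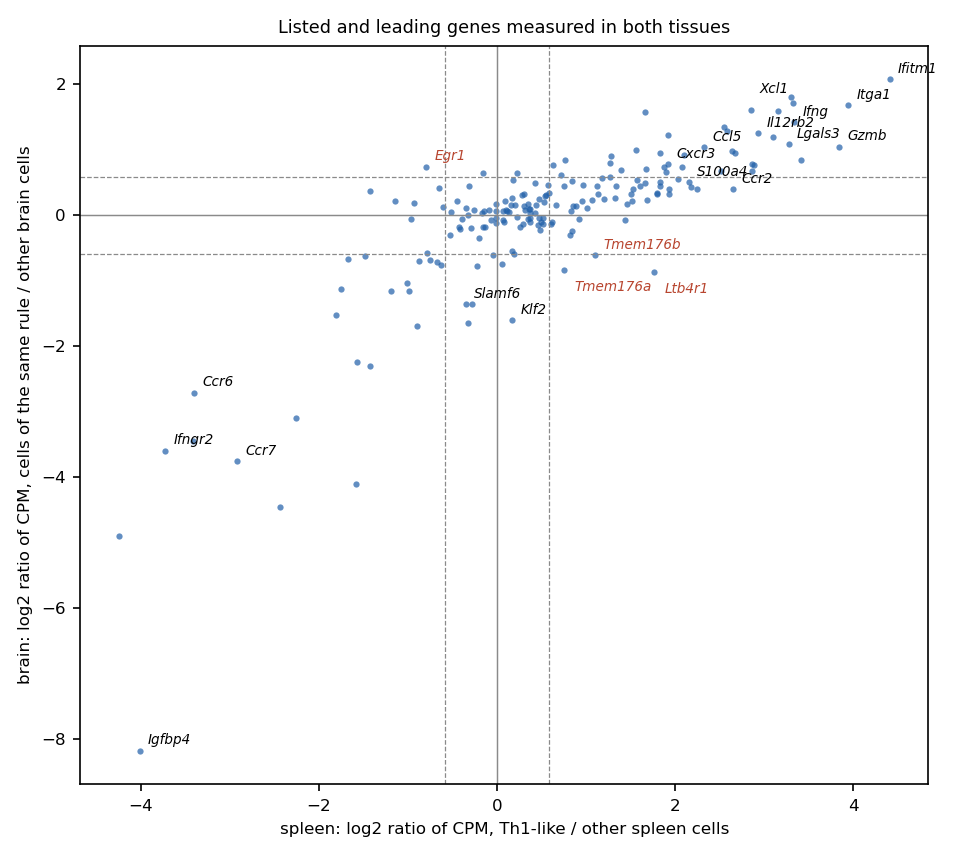
Log2 ratio of summed CPM, cells of the rule over the other cells of their tissue, in spleen (x axis) and brain (y axis), for 186 listed and leading genes measured in both; dashed lines are the 1.5-fold limits. Most genes lie on the same side of 0 in both tissues, with Ifitm1, Itga1 and Ifng at the upper right, and 4 genes past the fold in opposite directions are named in red.

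Set directly against each other, spleen and brain cells of the rule differed in 813 genes higher (11.7%) and 628 lower (9.00%) of 6976 in the spleen cells. With 1 library each, tissue and library cannot be told apart. Tbx21, at 207 CPM in spleen cells and 181 CPM in brain cells, and Cxcr6, at 388 and 484 CPM, were within the fold. Cytokine and ligand genes were lower in spleen Th1-like cells for 11 of 17, with Ifng at 110 CPM in spleen cells and 566 CPM in brain cells and Tnf at 58.1 and 260 CPM. Early response genes were lower for 12 of 13, with Fos at 26.9 CPM in spleen cells and 1761 CPM in brain cells, and residency genes for 15 of 19, with Cd69 at 121 and 869 CPM and Rgs1 at 88.6 and 956 CPM. Naive and central memory genes were higher in spleen for 13 of 16, with S1pr1 at 228 and 54.8 CPM and Klf2 at 745 and 251 CPM. Itgb1 had 1316 CPM in spleen cells and 475 CPM in brain cells, and Mki67 241 and 62.2 CPM. For Mki67, 5 spleen cells held 40.3% of the UMIs. Shares of cells with at least 2 of Mki67, Top2a and Birc5 overlapped, at 10.0% (7.23 to 13.5) in spleen and 7.57% (5.96 to 9.45) in brain cells of the rule. The libraries also differ in depth and cells loaded, and the part of either in these values was not tested.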

How the data were processed

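Per the labels, droplet 5′ RNA and T cell receptor libraries were made from sorted CD4+ T cells of brain and spleen. The authors deposited whole UMI counts per gene and barcode, and receptor contigs with V, J and CDR3 calls, 15912 in spleen and 7537 in brain. The submitters' processing notes list Cell Ranger 9.0.0. The spleen matrix held 65191435 UMIs and the brain matrix 44386447; Th1-like cells summed to 3681300 UMIs and other spleen cells to 52545318. The libraries share 31 barcodes, none of a Th1-like cell. Beyond the rule's limits no cell was removed, and doublets were treated only by the limit on receptor chains, which misses those with 1 recovered receptor. B-like cells had at least 2 of 4 B cell genes.

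Counts were summed per group and scaled to CPM. Levels carry exact Poisson, shares exact Clopper-Pearson and ratios exact conditional binomial 95% intervals; a count of 0 allows 3 counts. Thinning to 3000 UMIs left out 2 Th1-like and 541 other cells. UMIs of a library share their preparation, so intervals cover counting error only. The named genes are the rule's genes, the 12 higher and 10 lower genes with the most extreme near bound of the ratio at 50 CPM or more, up to 5 members with the largest ratios per list with all measured members of the type 1, chemokine receptor and cytokine lists, and a detection panel; any other was picked after its values were seen. The members and gene lists were chosen with earlier results of these data known. Alternatives changed the scaling, cell weights, depth, membership, comparison cells, fold, filter and clonotype definition. Ratios and intervals were tested on simulated counts. Python 3.11.15, numpy 2.4.6, scipy 1.17.1, pandas 2.3.3 and matplotlib 3.10.9 were used. No genome coordinates are given, because the notes name several builds without a role. Some genes are not reported here.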

Additional observations from a re-analysis of the deposited data

Results flagged for a closer look

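In 4 genes the cells of the rule lay past the 1.5-fold limit in opposite directions in the 2 tissues, each against the other cells of its own tissue. With 1 library per tissue the difference was not tested. Tmem176a and Tmem176b, neighbouring membrane protein genes high in Th17 cells, had log2 ratios of 0.76 and 1.10 in spleen and -0.83 and -0.61 in brain. Ltb4r1, the leukotriene B4 receptor gene, had a log2 ratio of 1.76 in spleen and -0.87 in brain. Egr1, an early response factor, had -0.79 in spleen and 0.75 in brain. Among spleen cells low in naive genes, Tmem176b had 83.7 CPM in Th1-like cells and 112 CPM in the others.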

How the results depend on the processing

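Across 14 alternatives, genes past the fold were followed from the 12 leading higher, the 10 leading lower and part of the detection panel. Of these 31 genes, 26 kept their direction and 24 stayed past the fold in all. Cxcr5 and the further named list members, such as Bhlhe40, Id2, Ifngr2, Itgb1 and Mki67, are not in this count. Median-ratio scaling moved the median of all genes by 0.08. With membership taken from thinned cells 993 genes were higher and 569 lower, and at 2 UMIs of each gene 563 were lower. Against others low in naive genes 285 were higher and 570 lower. A 10 CPM filter gave 596 lower, and a 50 CPM filter 355 higher and 192 lower. A fold of 2 gave 297 higher and 154 lower. With no filter 8403 were called higher and 2112 lower. A count of 0 in Th1-like cells is there set to 0.815 CPM, so a gene with no UMI in them can be called higher. The 8403 is therefore not a count of genes raised in Th1-like cells. The naive list median was -1.69 with cells weighted equally, -1.63 with thinned membership and -0.13 against others low in naive genes. The cell cycle median was 1.72 thinned, 2.61 at 2 UMIs, 2.20 with 1 cell per clonotype, 1.51 against others low in naive genes, 0.73 without the deepest 2% and 0.80 without cycling cells. The cytokine median was 1.64 at 2 UMIs, 0.36 against others low in naive genes and 1.69 without cycling cells, and the type 1 cytokine receptor median 1.37 without Foxp3 cells and 0.54 against others low in naive genes.

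Results that changed direction were B cell and antigen presentation genes. H2-Eb1, Cd79a, H2-Ab1 and H2-Aa had log2 ratios of 1.20, 1.54, 1.32 and 1.66 among paired cells and 1.29, 1.80, 1.49 and 1.79 with 1 cell per clonotype. Without B-like cells among the others, Cd79a, H2-Ab1 and H2-Aa had 3.65, 0.29 and 0.41. Against others low in naive genes the residency median was -0.14, the Th17 median -0.85 and Igfbp4 0.81; there the comparison cells were chosen by few naive genes, while 68 Th1-like cells with at least 2 of the naive genes stayed in.

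By TRB alone 40.3% of Th1-like and 12.2% of other cells were expanded. With clonotypes counted once, 24.3% of Th1-like and 4.53% of other clonotypes were expanded, and 15.7% and 3.10% were found in brain. Larger clonotypes have more chances to hold a Th1-like cell, so these shares by clonotype are descriptive. At 5 cells the expanded shares were 14.1% and 2.90%. Without the largest clonotype, 32.3% of Th1-like cells were expanded and 20.1% found in brain. The sisters' cell cycle median was 2.18 without the largest clonotype, 2.20 without cytotoxic cells and 0.81 without cycling cells. Sisters with neither Tbx21 nor Nkg7 had 648 genes lower and a type 1 cytokine receptor median of 0.49. Removing cycling, cytotoxic or such cells was chosen after seeing the data. No paired analysis was possible because each tissue has 1 RNA library. With 389 cells, a count of 0 cannot be told from 0.815 CPM.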
